A study of Mus musculus with 5 samples.

Results

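The integrin, laminin and nidogen genes were examined as receptors and ligands of the basement membrane in sorted mouse beta cells. They were chosen by name from the table of expression values, as every gene called Itga or Itgb with a further letter or digit, the laminin chain genes Lama, Lamb and Lamc, and Nid1 and Nid2, leaving out the integrin-binding proteins Itgb1bp and Itgb3bp. Described are 40 of 23951 genes, of which 28 carry an integrin name and 12 encode laminin chains or nidogens. Of the 28, 18 are alpha subunits, 9 are beta subunits including Itgb2l, and Itgbl1 encodes a related protein that is not a subunit. RNA-seq had been done on 5 samples of fluorescent cells sorted from dissociated pancreatic islets. The p16 group had 3 samples, from Ins-rtTA/tet-GFP/tet-p16ink4a mice, whose beta cells expressed p16INK4a, an inhibitor of the cyclin D kinases, together with green fluorescent protein. The GFP group had 2 samples, from Ins-rtTA/tet-GFP mice, whose beta cells expressed the fluorescent protein alone. All mice carried the insulin-promoter-driven transactivator and were given tetracycline for 10 days, and neither age nor sex is stated. The series' design counts 3 and 2 mice, but no label ties a sample to a mouse. The authors' p-values therefore rest on differences between these samples, whose spread may be technical in part. No label says whether the p16 transgene was the mouse or the human sequence.

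Integrins are receptors of the cell surface made of an alpha and a beta subunit, which bind proteins of the extracellular matrix outside the cell and, through talin, kindlin and vinculin, the actin cytoskeleton inside it. Laminins are trimers of an alpha, a beta and a gamma chain that form the core sheet of basement membranes, and nidogens link that sheet to collagen IV. In mouse islets the basement membrane that beta cells touch is that of the capillaries, laid down largely by endothelial cells, and beta cells bind its laminins through integrins.

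Values are the authors' FPKM, fragments per kilobase of transcript scaled to library depth, with 1 value per gene and group. No SD, library depth or value of an individual sample can therefore be given. A gene is said to have been called, or to have risen or fallen, where the q-value in the authors' deposited table was below 0.05. Where a gene was not called, the table gives no error for the difference, and the q-value does not show that the groups were alike. Of 13264 genes the authors tested, 4.32% were called higher and 1.1% lower in p16 cells, 5.42% in either direction. Cdkn2a, the gene of p16INK4a, stood at 34.6 FPKM in p16 cells and 0.657 FPKM in GFP cells, in the direction of the labels. Of 12 beta cell markers, 9 were tested, with a summed level of 3848 FPKM in p16 cells and 5011 FPKM in GFP cells. For Ins1, Ins2 and Iapp the table gives 0 in p16 and GFP cells, marked as loci with too many fragments for an estimate. The glucose transporter gene Slc2a2, at 205.2 FPKM in p16 cells and 402 FPKM in GFP cells, was called lower (q = 0.0242 in the authors' deposited table). That call was lost at q below 0.01 and with a trend in GC content and transcript length removed. None of the other 8 was called, and the directions of the 9 were mixed, with 5 lower and 4 higher in p16 cells. The lower sum came mainly from the most abundant marker, G6pc2, of glucose handling, at 2327 FPKM in p16 cells and 3012 FPKM in GFP cells, and from the zinc transporter gene Slc30a8, at 405 FPKM in p16 cells and 648 FPKM in GFP cells. The transcription factor genes Pdx1, Mafa, Nkx6-1 and Nkx2-2 were the 4 with higher values, 119.6, 166, 155 and 89.9 FPKM in p16 cells and 67.6, 109, 136 and 73.3 FPKM in GFP cells, and Pdx1 would pass at q below 0.1 (q = 0.0996 in the authors' deposited table).

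Of the 40 members, 15 passed the authors' own filter and were tested, 12 integrin genes and 3 ligand genes. In p16 cells 3 of the 12 integrin genes rose (Itga6, Itgb6 and Itgb8), as did 1 of the 3 ligand genes (Nid1), and none of the 15 fell. Over all tested genes 4.32% were called higher and 1.1% lower. The median log2 ratio, p16 over GFP, was 0.36 over the 12 tested integrin genes and 0.91 over the 3 tested ligand genes, beside -0.02 over all tested genes. The other 25 members were not tested, and the highest value any of them reached was 0.353 FPKM, for Itga10 in p16 cells. Of those 25, 18 were below 0.1 FPKM in both groups. In GFP cells the tested genes Nid1, Itgb6 and Itga2b also lay below 0.353 FPKM, at 0.0282, 0.0488 and 0.198 FPKM. These 3 genes may have been tested only through their p16 level. A gene tested that way can only have the higher value in p16 cells, so the counts and medians lean that way.

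The 4 called genes lay at the following loci of the mm9 build, as the table gives them, counted from 1. Itga6 spans chr2:71624996-71696484 and Itgb6 spans chr2:60436349-60560660. Itgb8 spans chr12:120401276-120476749 and Nid1 spans chr13:13529869-13604542. None of the 4 called genes overlapped another gene of the table.

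Promoter sequence is shown for the called genes that the RefSeq promoter table holds, because they rose in the same comparison. Each line is the 250 bases before an annotated start in GRCm38.p6, 5′ to 3′ on the gene's strand, and capitals mark matches, on either strand, to 4 motifs: TGANTCA, of AP-1 factors; GGAATG, of TEAD factors; GGGCGG, the GC box; and TATAAA, the TATA box. Itgb6 has a pair of annotated starts. Itga6 is not in that table. The windows are chr13:13437352-13437601 on the plus strand for Nid1, chr12:119238277-119238526 on the minus strand for Itgb8, and chr2:60722604-60722853 and chr2:60673694-60673943 on the minus strand for the upstream and downstream starts of Itgb6.
Nid1: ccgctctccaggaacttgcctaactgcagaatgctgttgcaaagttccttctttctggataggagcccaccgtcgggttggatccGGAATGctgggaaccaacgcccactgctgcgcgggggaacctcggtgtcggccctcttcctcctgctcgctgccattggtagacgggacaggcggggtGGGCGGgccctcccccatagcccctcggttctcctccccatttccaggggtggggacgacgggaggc
Itgb8: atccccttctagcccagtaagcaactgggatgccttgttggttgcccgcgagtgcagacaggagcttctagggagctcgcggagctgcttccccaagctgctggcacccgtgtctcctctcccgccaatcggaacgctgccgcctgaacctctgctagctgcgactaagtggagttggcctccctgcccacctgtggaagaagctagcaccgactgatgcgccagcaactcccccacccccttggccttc
Itgb6 upstream start: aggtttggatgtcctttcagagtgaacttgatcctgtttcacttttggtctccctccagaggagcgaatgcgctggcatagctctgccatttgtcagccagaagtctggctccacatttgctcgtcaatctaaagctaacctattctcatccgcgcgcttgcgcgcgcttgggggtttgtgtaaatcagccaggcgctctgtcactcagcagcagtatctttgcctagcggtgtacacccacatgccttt
Itgb6 downstream start: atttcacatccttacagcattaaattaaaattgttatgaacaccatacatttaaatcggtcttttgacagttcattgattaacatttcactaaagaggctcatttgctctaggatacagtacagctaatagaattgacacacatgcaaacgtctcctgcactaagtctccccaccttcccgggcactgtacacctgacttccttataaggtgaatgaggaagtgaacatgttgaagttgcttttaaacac

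These windows differed in base composition. GC content was 64.4% at Nid1, 62.4% at Itgb8, 52% at the upstream and 38% at the downstream start of Itgb6, beside a median of 52.4% over 32851 promoter windows of the same length. The numbers of CpG pairs were 16, 12, 11 and 3 in the same order, beside a median of 6. Nid1 held the letters GGAATG and GGGCGG, starting 165 and 67 bases before its start, and the Itgb8 and Itgb6 windows held none of the 4 motifs. Over all windows, 6.75% held TGANTCA, 12.6% GGAATG, 32.7% GGGCGG and 12.4% TATAAA. Of 29 windows from 26 members, 1 held TGANTCA, 4 GGAATG, 11 GGGCGG and 0 TATAAA. Chromosome 18, where Lama3 lies, was left out of the member windows but not out of the count over all windows.

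**Figure D1:**
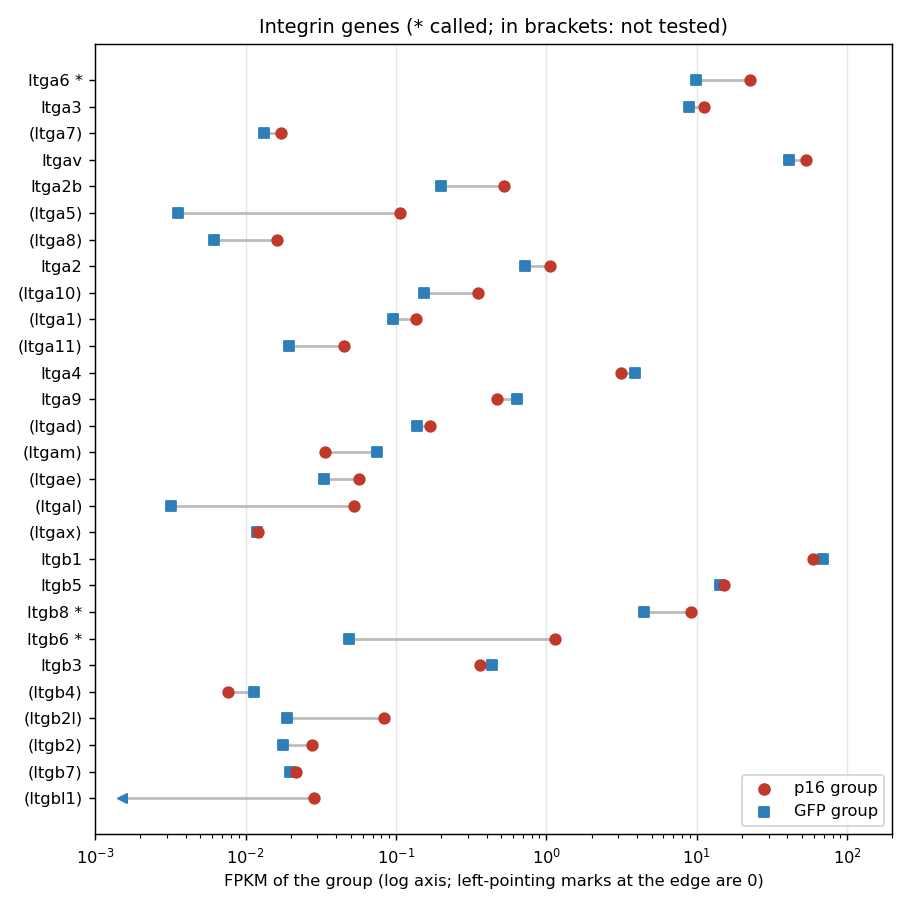
FPKM of the 28 integrin genes on a log axis, grouped by role, with red circles for the p16 group and blue squares for the GFP group, 1 value per group. Itga6, Itgb8 and Itgb6, marked with a star, were called higher in p16 cells, and the names in brackets, none above 0.353 FPKM, were not tested.

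Among the alpha subunits that bind laminin, Itga6 rose and Itga3 did not pass. Itga6 encodes the alpha6 subunit, which pairs with beta1 or beta4. It had 22.4 FPKM in p16 cells and 9.91 FPKM in GFP cells, a 2.26-fold difference with a log2 ratio of 1.18 (q = 0.00245 in the authors' deposited table). This was the largest absolute difference among the 40 members, at 12.5 FPKM, close to the 12.3 FPKM of Itgav, which was not called. The Itga6 call was kept at q below 0.01, over genes of at least 5 FPKM, and with the GC and length trend removed. Itga3, which encodes the alpha3 subunit and pairs with beta1, had 11.2 FPKM in p16 cells and 8.91 FPKM in GFP cells (q = 0.584 in the authors' deposited table). Itga7, the muscle laminin receptor subunit, stood at 0.0172 FPKM in p16 cells and 0.0132 FPKM in GFP cells and was not tested. Summed over these 3 genes the level was 33.7 FPKM in p16 cells and 18.8 FPKM in GFP cells.

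Neither partner of alpha6 was called. Itgb1, the beta1 subunit that pairs with most alpha subunits, was the most abundant member in both groups, with 59.5 FPKM in p16 cells and 69.4 FPKM in GFP cells, and was not called (q = 0.756 in the authors' deposited table). Itgb4, the subunit that joins alpha6 in hemidesmosomes, the anchoring junctions of epithelia, stood at 0.0076 FPKM in p16 cells and 0.0114 FPKM in GFP cells and was not tested. Per transcript length, Itga6 was at 1.998 times the level of Itga3 in p16 cells and at 1.11 times in GFP cells.

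The subunits around alpha v differed in the beta partner. Itgav, the alpha v subunit, which recognises the amino acid motif Arg-Gly-Asp in matrix proteins, had 53.4 FPKM in p16 cells and 41.02 FPKM in GFP cells and was not called (q = 0.51 in the authors' deposited table). Of the 4 genes whose beta subunits join it besides beta1, 2 rose. Itgb8, whose product with alpha v binds latent TGF-beta, had 9.15 FPKM in p16 cells and 4.47 FPKM in GFP cells, a 2.05-fold difference (log2 ratio 1.03, q = 0.0248 in the authors' deposited table). This call was lost at q below 0.01 and was kept under the other thresholds and filters tried and with the GC and length trend removed.

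Itgb6, an epithelial partner of alpha v that also binds latent TGF-beta, had 1.15 FPKM in p16 cells and 0.0488 FPKM in GFP cells (q = 0.00441 in the authors' deposited table). The log2 ratio was 4.55, but 1.03 once 1 FPKM was added to each value and 0.28 with 5 FPKM added, since the GFP value lies near 0. Its mean level was below 1 FPKM, where 6.85% of 1490 tested genes were called higher and 0.403% lower, beside 4% and 1.19% of tested genes at or above that level. Itgb5, a widely expressed partner, had 15.1 FPKM in p16 cells and 14.2 FPKM in GFP cells (q = 0.934 in the authors' deposited table). Itgb3, the partner found in platelets and osteoclasts, had 0.36 FPKM in p16 cells and 0.432 FPKM in GFP cells (q = 0.844 in the authors' deposited table). The level of Itgb8 was 0.604 times that of Itgb5 in p16 cells and 0.314 times in GFP cells.

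**Figure D2:**
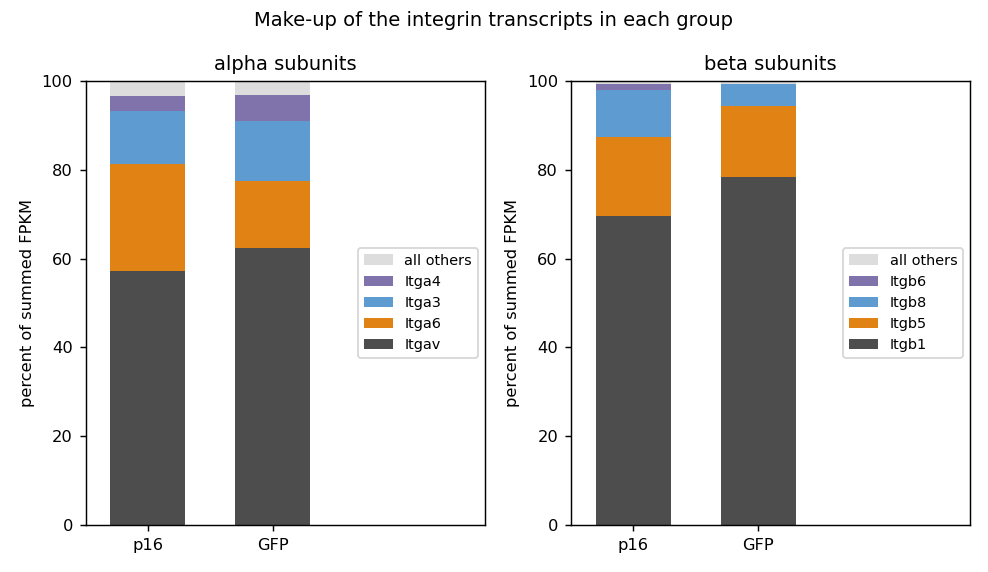
Stacked bars give the percent of the summed FPKM of all alpha subunit genes (left) and all beta subunit genes (right) held by each of 4 genes and by all others, in p16 and GFP cells. Itga6 held 24.1% of the alpha sum in p16 cells and 15.1% in GFP cells, and Itgb8 held 10.7% of the beta sum in p16 cells and 5.04% in GFP cells.

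A few genes made up most of the integrin transcripts. The summed level of the 18 alpha subunit genes was 93.2 FPKM in p16 cells and 65.8 FPKM in GFP cells, and that of the 9 beta subunit genes was 85.4 FPKM in p16 cells and 88.6 FPKM in GFP cells. Itgav held 57.2% of the alpha sum in p16 cells and 62.3% in GFP cells, and Itga3 held 12.05% in p16 cells and 13.5% in GFP cells. On the beta side Itgb1 held 69.6% in p16 cells and 78.3% in GFP cells, and Itgb5 held 17.7% in p16 cells and 16.1% in GFP cells. These shares have no replicate error and were not tested. In order of level, p16 cells had Itgb1, Itgav, Itga6, Itgb5, Itga3, Itgb8 and Itga4 above 3 FPKM. In GFP cells the same 7 genes stood above that level, with Itgb5 ahead of Itga6, and the spread behind neighbouring ranks is unknown.

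The remaining tested subunits were low and none was called. Itga4, which binds fibronectin and the vascular adhesion molecule Vcam1, had 3.15 FPKM in p16 cells and 3.86 FPKM in GFP cells (q = 0.758 in the authors' deposited table). It shares its locus in the table with Cerkl, so how reads were divided there is uncertain. Itga9, of the same class, had 0.471 FPKM in p16 cells and 0.639 FPKM in GFP cells (q = 0.648 in the authors' deposited table). Itga2, a collagen receptor subunit, had 1.06 FPKM in p16 cells and 0.718 FPKM in GFP cells (q = 0.515 in the authors' deposited table). Itga2b, the platelet subunit, had 0.524 FPKM in p16 cells and 0.198 FPKM in GFP cells (q = 0.143 in the authors' deposited table). The other collagen receptor genes Itga1, Itga10 and Itga11 lay between 0.0451 and 0.353 FPKM in p16 cells and between 0.0195 and 0.154 FPKM in GFP cells, and none of them was tested.

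Integrins of leukocytes were near 0. The 5 genes Itgad, Itgae, Itgal, Itgam and Itgax summed to 0.323 FPKM in p16 cells and 0.26 FPKM in GFP cells, and the beta subunit genes Itgb2, Itgb2l and Itgb7 summed to 0.132 FPKM in p16 cells and 0.0564 FPKM in GFP cells. The fibronectin receptor gene Itga5 stood at 0.106 FPKM in p16 cells and 0.00357 FPKM in GFP cells. Itga8 and Itgbl1 had 0.0162 and 0.0283 FPKM in p16 cells, and in GFP cells Itga8 had 0.00619 FPKM and Itgbl1 is listed at 0.

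**Figure D3:**
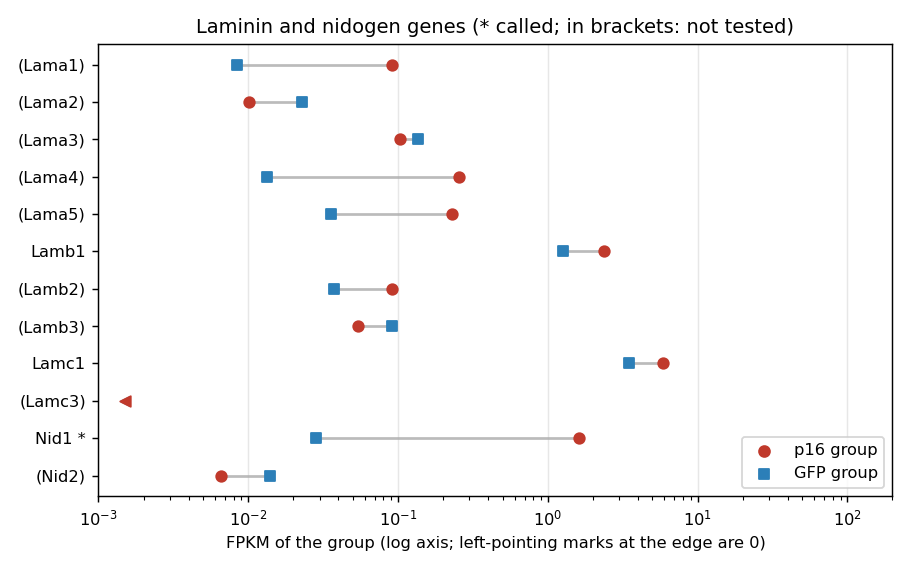
FPKM of 12 laminin and nidogen genes on a log axis, with red circles for the p16 group and blue squares for the GFP group. Nid1, marked with a star, was called higher in p16 cells, no laminin alpha chain reached 0.3 FPKM, and Lamc3 is listed at 0 in both groups.

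Among the ligands, 1 of the 3 tested genes, Nid1, rose, and Lamc1 and Lamb1 had higher values in p16 cells without passing. Lamc1, the gamma1 chain of most laminins, had 5.84 FPKM in p16 cells and 3.49 FPKM in GFP cells, with a log2 ratio of 0.74 (q = 0.0948 in the authors' deposited table). Lamc3 is listed at 0 in both groups.

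Of the beta chains, Lamb1, which joins Lamc1 in several laminins, had 2.39 FPKM in p16 cells and 1.27 FPKM in GFP cells, with a log2 ratio of 0.91 (q = 0.0841 in the authors' deposited table). Lamb1 and Lamc1 would both pass at q below 0.1. Lamb2 and Lamb3 were not tested and were below 0.1 FPKM in both groups.

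Every laminin has an alpha chain, and all 5 alpha chain genes were too low to be tested. Their sum was 0.69 FPKM in p16 cells and 0.216 FPKM in GFP cells. Lama4 and Lama5, the alpha chains of vascular basement membranes, had 0.257 and 0.23 FPKM in p16 cells and 0.0134 and 0.0357 FPKM in GFP cells. Lama1 had 0.0905 FPKM in p16 cells and 0.00838 FPKM in GFP cells. Lama2 had 0.0101 FPKM in p16 cells and 0.0227 FPKM in GFP cells. Lama3 and Lamb3, chains of epithelial laminins, had 0.103 and 0.054 FPKM in p16 cells and 0.136 and 0.091 FPKM in GFP cells.

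Nid1, which binds the laminin gamma1 chain and collagen IV, had 1.61 FPKM in p16 cells and 0.0282 FPKM in GFP cells (q = 0.0242 in the authors' deposited table). The log2 ratio of 5.83 was the largest of the tested members, and it was 1.34 with 1 FPKM added to each value and 0.39 with 5 FPKM added. The call was lost at q below 0.01 and with the GC and length trend removed, and the gene's mean level was below the 1 FPKM filter. Nid2, its relative, stood at 0.00663 FPKM in p16 cells and 0.0139 FPKM in GFP cells and was not tested.

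Some markers of other cells moved beside Nid1, and their part in the result was not tested. Of 12 stellate cell, fibroblast and pericyte markers 2 were tested and both were called higher, beside 4.32% of all tested genes. Dcn had 2.29 FPKM in p16 cells and 0.133 FPKM in GFP cells, and Col1a2 had 1.6 FPKM in p16 cells and 0.0837 FPKM in GFP cells. Both GFP values lay below that of the untested Col3a1, so both genes may have been tested only through their p16 level. A gene tested that way can only come out higher. The whole list summed to 5.25 FPKM in p16 cells and 0.746 FPKM in GFP cells, with no member at 0. Dcn and Col1a2 held most of the p16 sum. Among the untested markers, Acta2 and Lum had lower values in p16 cells, 0.0149 and 0.00907 FPKM, against 0.0728 and 0.045 FPKM in GFP cells. The other untested markers had higher values in p16 cells, Col3a1 only slightly, at 0.186 FPKM against 0.169 FPKM in GFP cells. Of 14 endothelial markers 2 were tested and none was called, and the sum was 5.29 FPKM in p16 cells and 4.67 FPKM in GFP cells. Cdh5 and Kdr, which define endothelium, stood at 0.015 and 0.0151 FPKM in p16 cells and at 0.0118 and 0.0964 FPKM in GFP cells, and Cldn5 is listed at 0 in both. The endothelial markers of highest level were Esam and Egfl7, with 3.04 and 1.54 FPKM in p16 cells and 2.49 and 1.51 FPKM in GFP cells.

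Some markers of duct and other endocrine cells moved beside Itga6, Itgb6 and Itgb8, and their part in those results was not tested either. Their counts stand beside 4.32% of all tested genes called higher and 1.1% called lower. Of 10 duct markers 8 were tested, with 2 called higher and 1 lower, and a sum of 226 FPKM in p16 cells and 187 FPKM in GFP cells. Most of that sum came from Krt7, at 152 FPKM in p16 cells and 134 FPKM in GFP cells. Krt7 was not called (q = 0.814 in the authors' deposited table). The matrix protein gene Spp1 had 15.1 FPKM in p16 cells and 3.85 FPKM in GFP cells, Sox9 had 0.492 FPKM in p16 cells and 0.122 FPKM in GFP cells, and the keratin gene Krt19 fell to 1.79 FPKM in p16 cells, against 5.75 FPKM in GFP cells. Of 9 alpha, delta and PP cell markers 8 were tested and 4 were called higher, Sst, Ppy and Pyy among them (2 with the GC and length trend removed), with a sum of 6677 FPKM in p16 cells and 3975 FPKM in GFP cells. Sst had 2678 FPKM in p16 cells and 1244 FPKM in GFP cells, Ppy had 672 FPKM in p16 cells and 345 FPKM in GFP cells, and Pyy had 545 FPKM in p16 cells and 225 FPKM in GFP cells. Gcg and Ttr, a large part of the sum, were not called (q = 0.497 and 0.986 in the authors' deposited table). They had 2263 and 505 FPKM in p16 cells and 1642 and 511 FPKM in GFP cells. Of the 8 tested, 7 had the higher value in p16 cells and 1, Ttr, the lower. In RNA from sorted pools, fewer cells of a type and less RNA per cell cannot be told apart.

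Lists of acinar, Schwann cell and leukocyte markers were also counted, beside the same shares of 4.32% higher and 1.1% lower over all tested genes. Of 10 acinar markers 8 were tested and none called, with a sum of 19.4 FPKM in p16 cells and 18.3 FPKM in GFP cells, led by Ctrb1 at 6.20 FPKM in p16 cells and 6.58 FPKM in GFP cells and Cela1 at 5.30 FPKM in p16 cells and 3.02 FPKM in GFP cells. Amy2a5 and Ptf1a are listed at 0 in both groups. Of 6 Schwann cell markers 3 were tested and Mbp was called higher, at 52.3 FPKM in p16 cells and 28.3 FPKM in GFP cells (q = 0.0223 in the authors' deposited table), a call lost at q below 0.01 and with the GC and length trend removed. That list summed to 61.7 FPKM in p16 cells and 36.8 FPKM in GFP cells, with S100b listed at 0 in GFP cells. Of 13 leukocyte markers 4 were tested and 1 was called higher, Cd68, at 1.95 FPKM in p16 cells and 0.229 FPKM in GFP cells, chosen for mention with its value in view (q = 0.0498 in the authors' deposited table). The Cd68 call was lost at q below 0.01, after adjustment over genes of at least 1 FPKM and with the GC and length trend removed. The leukocyte sum was 14.4 FPKM in p16 cells and 15.2 FPKM in GFP cells, led by Fcer1g and Cd79a with 5.53 and 5.50 FPKM in p16 cells and 6.39 and 7.41 FPKM in GFP cells. Cd3e is listed at 0 in both groups, and Tyrobp and Emr1 in p16 cells.

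**Figure D4:**
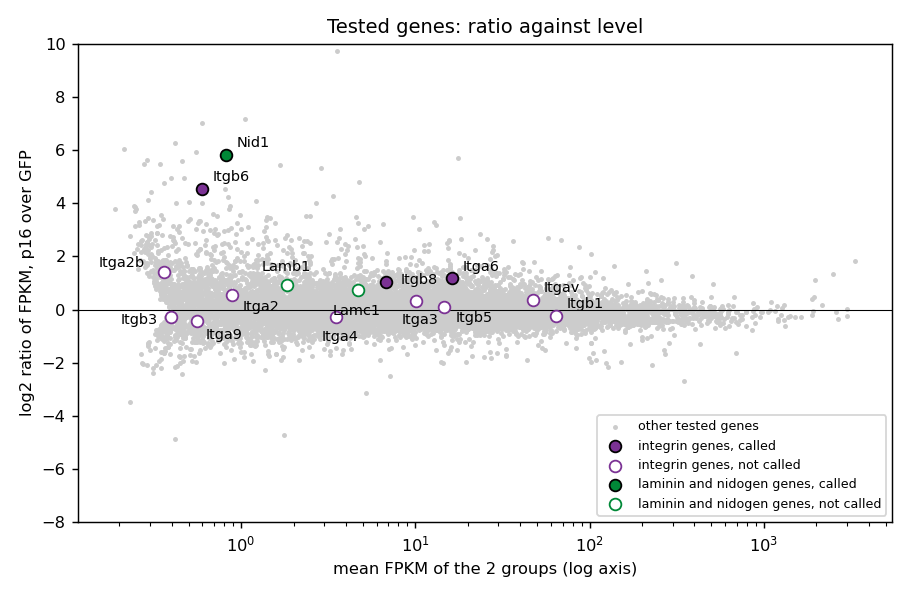
Log2 ratio of FPKM, p16 over GFP, against the mean FPKM of the groups for the tested genes (grey), with integrin genes in purple and laminin and nidogen genes in green, filled where called. Nid1 and Itgb6 sit highest, at 5.83 and 4.55 and at means below 1 FPKM, while Itga6 and Itgb8 lie at 1.18 and 1.03 at higher levels. The 90 tested genes at 0 in 1 group are not drawn.

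The genes around these receptors and ligands were counted in 5 further lists, read against the 4.32% of tested genes called higher and 1.1% called lower. Of 9 tested partners in the basement membrane 2 rose and none fell, with a median log2 ratio of 0.98. Smoc1, a calcium-binding protein of basement membranes, had 5.61 FPKM in p16 cells and 0.787 FPKM in GFP cells (q = 0.00245 in the authors' deposited table). Pxdn, the peroxidase that cross-links collagen IV, had 1.1 FPKM in p16 cells and 0.301 FPKM in GFP cells, at the same q in the authors' deposited table. The most abundant partner, Npnt, which encodes the integrin ligand nephronectin, had 14.4 FPKM in p16 cells and 16.97 FPKM in GFP cells (q = 0.732 in the authors' deposited table). The collagen IV gene Col4a1 had 2.49 FPKM in p16 cells and 3.99 FPKM in GFP cells, with a log2 ratio of -0.68 (q = 0.194 in the authors' deposited table). With the GC and length trend removed, Smoc1 and Pxdn were still called higher and Col4a1 was called lower. Of 21 listed partners 12 were too low to be tested, among them Col4a2, at 0.117 FPKM in p16 cells and 0.0462 FPKM in GFP cells, and the perlecan gene Hspg2, at 0.134 FPKM in p16 cells and 0.0314 FPKM in GFP cells. Npnt, Col4a1, Col4a2 and Hspg2 were chosen for mention with their values in view.

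Of 12 tested receptors for matrix other than integrins 1 rose and none fell, with a median log2 ratio of 0.36. Sdc4, the syndecan that acts beside integrins at focal adhesions, had 80.03 FPKM in p16 cells and 43.5 FPKM in GFP cells (q = 0.0328 in the authors' deposited table). The Sdc4 call was lost at q below 0.01 and kept with the GC and length trend removed. The most abundant were Rpsa, which encodes a ribosomal protein also named as a laminin receptor, at 199.7 FPKM in p16 cells and 279 FPKM in GFP cells, and the collagen receptor gene Ddr1, at 81.7 FPKM in p16 cells and 48.1 FPKM in GFP cells. Neither was called (q = 0.336 and 0.081 in the authors' deposited table).

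Among 12 tested ligands of integrins outside the basement membrane 2 rose and none fell, with a median log2 ratio of 0.52. They were Spp1, which encodes osteopontin, a ligand of alpha v integrins, and Icam1, a ligand of leukocyte integrins, at 6.54 FPKM in p16 cells and 2.92 FPKM in GFP cells (q = 0.00245 and 0.0267 in the authors' deposited table). Fn1, the fibronectin gene, and Tgfb1, a latent ligand of the pairs that Itgb6 and Itgb8 form, were not tested, with 0.412 and 0.266 FPKM in p16 cells and 0.0085 and 0.0476 FPKM in GFP cells. They too were chosen with their values in view. With the GC and length trend removed, 1 of the 12 was called higher.

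Inside the cell, 4 of 31 tested adaptors and signalling proteins rose and none fell, with a median log2 ratio of 0.27, and 2 were called higher with the GC and length trend removed. Vcl, which encodes vinculin, had 44.5 FPKM in p16 cells and 7.12 FPKM in GFP cells, and Zyx, which encodes zyxin of focal adhesions, had 30.4 FPKM in p16 cells and 7.36 FPKM in GFP cells, each with a q of 0.00245 in the authors' deposited table. Vasp, an actin filament elongation factor, had 34.9 FPKM in p16 cells and 17.6 FPKM in GFP cells, and Flna, the actin cross-linker filamin A, had 2.60 FPKM in p16 cells and 1.24 FPKM in GFP cells (q = 0.0142 and 0.0215 in the authors' deposited table). Zyx shares its locus with Epha1 and another gene in the table. The talin gene Tln1 and the kinase genes Ilk and Ptk2, singled out because they link integrins to signalling, were not called, with 9.91, 39.1 and 8.44 FPKM in p16 cells and 9.29, 38.6 and 9.86 FPKM in GFP cells.

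Of 19 tested membrane partners and trafficking factors 4 rose and 1 fell, with a median log2 ratio of 0.14. At q below 0.01 only 1 of the 4 higher calls was left, that of Cd81. With the GC and length trend removed 3 were left, without Cd82. The 1 lower call was kept in both settings. The tetraspanin genes Cd81 and Cd82 had 88.9 and 66.9 FPKM in p16 cells and 37.01 and 37.1 FPKM in GFP cells (q = 0.00245 and 0.0369 in the authors' deposited table). Each of them shares its locus with other genes. Plaur, the urokinase receptor gene, had 2.59 FPKM in p16 cells and 0.23 FPKM in GFP cells (q = 0.0174 in the authors' deposited table). Itgb3bp, a nuclear protein first found through its binding to beta3, fell to 3.13 FPKM in p16 cells, against 7.26 FPKM in GFP cells (q = 0.00441 in the authors' deposited table). The fourth that rose, chosen for mention with its value in view, was the caveolin gene Cav1, at 0.609 FPKM in p16 cells and 0.0661 FPKM in GFP cells.

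**Figure D5:**
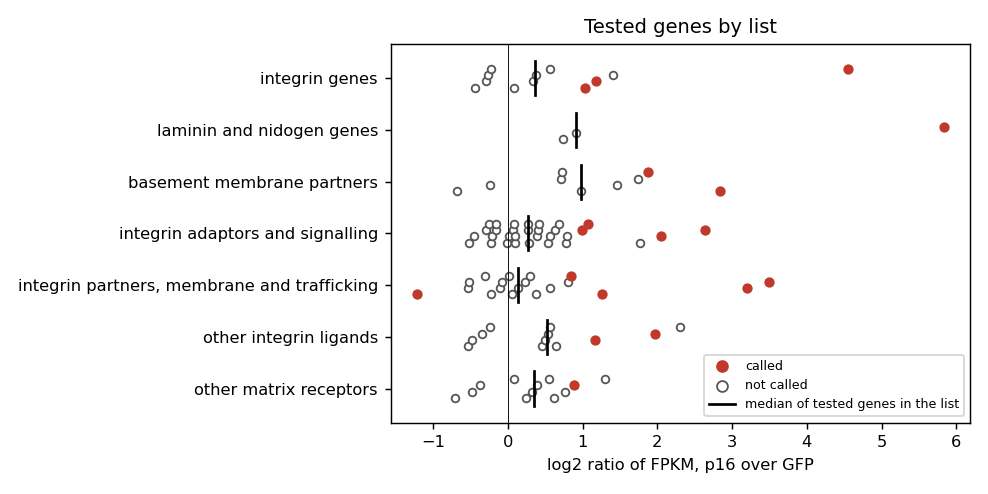
Log2 ratio of FPKM, p16 over GFP, of each tested gene in the integrin group, the laminin and nidogen group and 5 pathway lists, with called genes filled in red and a bar at each list's median. The medians run from 0.14 for membrane and trafficking partners to 0.98 for basement membrane partners, and the 1 called gene left of 0 is Itgb3bp.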

How the data were processed

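Per the labels, RNA of sorted beta cells was sequenced in 5 samples. Per the submitters' processing notes, TopHat2, Cuffnorm and Cuffdiff were used on the mm9 build. Their versions, the annotation, the scaling between libraries and the strand setting are not given in the sources. The authors' deposited table gives, for each gene, 1 FPKM value per group with a p-value and a q-value, so no count model was run and depth is unknown. The deposited q-values matched the Benjamini-Hochberg adjustment of the p-values of 13264 tested genes within 5.23e-07, and 271 genes had the lowest p-value, 5e-05. Those 271 genes share the lowest q-value, 0.00245, so it does not rank them.

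The name rule finds 1 further gene that is not reported here and is left out of member counts, sums and medians. Members and lists were chosen with earlier results of these data known. All tested members are named; from each list up to 4 called genes of largest change on log2(FPKM + 1), or, with fewer than 2 called, also the 2 of highest level, and others, with the untested members, were chosen with their values in view. Log2 ratios were recomputed from FPKM without a pseudocount, p16 over GFP. For 272 of 273 microRNAs length equalled end minus start, so 1 was added to each start. No member start equalled its GRCm38 start. The longest GENCODE M21 transcript gave GC content and length, matched for 99.0% of tested genes. Natural splines with 4 degrees of freedom each in GC content and log2 length were removed from signed normal quantiles of the authors' p-values, of whose variance they explained 23.0%; the procedure was first tested on simulated data. Reads of a member and of genes that overlap it cannot be told apart without strand; 10 members share a locus with another gene, of which Itga4 is the tested one. Scripts ran in Python 3.11.15, with scipy 1.17.1, numpy 2.4.6, matplotlib 3.10.9 and pandas 2.3.3.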

Additional observations from a re-analysis of the deposited data

How the results depend on the processing

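The 3 integrin calls numbered 2 at q below 0.01, 3 at q below 0.1, 2 after adjustment over genes with a mean of at least 1 or 5 FPKM, which leave Itgb6 out, and 3 with the GC and length trend removed, all of them among the original 3. The 1 ligand call, Nid1, became 0 at q below 0.01, 3 at q below 0.1, where Lamb1 and Lamc1 joined, 0 over genes of at least 1 FPKM, which leave Nid1 out, and 0 with the trend removed; over genes of at least 5 FPKM no ligand was left to test. No member was called lower under any of these. Over all tested genes, 311 were higher and 58 lower at q below 0.01, 272 lower at q below 0.1, 298 higher over genes of at least 5 FPKM, and 397 higher and 90 lower with the trend removed, against 573 and 146 in the authors' table. For integrin genes the median log2 ratio, 0.36, changed to 0.085 under a pseudocount of 5 and to 0.51 over all 27 integrin genes above 0. The ligand median of 0.91 was 0.61 and 0.35 with pseudocounts of 1 and 5, which shrink low values, and 0.75 with quantile normalization. No called member changed direction with quantile normalization. With the GC and length trend removed none did either, at signed quantiles from 2.86 (Nid1) to 4.45 (Itgb6). The pseudocounts, centring, thresholds and filters could not have shown a change of direction in called members. Adding the same pseudocount to both groups keeps the sign, and the median used for centring was only -0.02. Of the counts for pathway and marker lists, 9 of 26 moved by over 1.5 times at q below 0.01 and 7 of 26 with the trend removed, settings added for the lists after the data were seen. Leaving out each replicate was not run, since the values are per group. No paired analysis was possible because the table has no values per sample, though p16 and GFP samples share the numbers 2 and 3. Depth is unknown, so how far values below 1 FPKM can be read is not known. Called list genes with low GFP values, such as Sox9, Cd68, Pxdn, Plaur and Cav1, may also have been tested only through their p16 level.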

Other observations

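Among members too low for the authors to test, those above 0 in both groups with the widest ratios all had the higher value in p16 cells. Itga5 had a log2 ratio of 4.89, Lama4 of 4.26, Itgal of 4.03 and Lama1 of 3.43, each from a GFP value below 0.02 FPKM. With 1 FPKM added to each value these were 0.14, 0.31, 0.07 and 0.11. The lowest ratio in the other direction was that of Lama2, at -1.16, or -0.02 with 1 FPKM added. No test was run on them, and they were picked after their values were seen.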
